A study of Homo sapiens with 3 samples.

Results

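The genes described here encode the RNase H enzymes and other proteins that remove R-loops or keep them from forming: RNASEH1, RNASEH2A, RNASEH2B, RNASEH2C, AQR, DHX9, DDX5, XRN2 and THOC1. They were taken by symbol from a list of R-loop processing genes, without a rule on their measured values, and all 9 were found among the 58051 genes with counts, of which 19629 were protein-coding. The list was chosen with earlier results of these data known. An R-loop is a stretch of RNA paired with 1 strand of a DNA duplex, with the other DNA strand left single. RNase H enzymes cut the RNA of such hybrids, helicases unwind them, and factors that package, splice or terminate the nascent transcript limit their formation. R-loops that persist are known to block replication forks and to give rise to DNA breaks.

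Total RNA was sequenced, after depletion of ribosomal RNA, from 3 replicates of H9, an established human embryonic stem cell line. The genotype of the cells was wild type and they received no treatment, so that the study holds 1 condition and no comparison between conditions. The labels do not say whether the replicates came from separate cultures, and p-values then measure only the spread between these libraries, which may be technical. The study sequenced this RNA to sort genes by expression level before it compared DNA breaks at their start and splice sites.

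The number of reads counted on genes ranged from 8655155 in replicate 3 to 12024802 in replicate 2, and 28828 to 29672 genes had a read. All 7 pluripotency genes examined were in the high class described below, with means from 275 TPM (NANOG) to 2576 TPM (LIN28A). None of 12 marker genes of other cells was in it. Their means ranged from 0 (CDX2, a trophoblast marker) to 25.6 TPM (COL1A2, a fibroblast collagen gene), which was in it under the other gene length used. In bulk RNA, a lower level in every cell and fewer cells that express a gene cannot be told apart.

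Levels are given as TPM, which is the count per length of the gene, scaled to the same sum in each replicate. A gene's length can be taken as the union of all its annotated exons, or as the length of its MANE Select transcript, the single reference transcript on which RefSeq and GENCODE agree. Both were used, since they ranked these genes differently, and the values below are by the union of exons unless said otherwise. As in the methods of the study, genes under 0.01 TPM were called not expressed and the others were split into 3 classes of equal size. Here the classes were set over the 16968 expressed protein-coding genes, with boundaries at 3.35 and 27.0 TPM.

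The promoters of the RNase H genes, XRN2 and THOC1 are shown to set out what the genes of the enzyme share at their start sites and where a motif that is rare among promoters recurred. Each runs from 250 bases before to 50 bases after the start, read along the strand of the gene, from RefSeq on GRCh38.p14. Capitals mark matches on either strand to the GC box (GGGCGG), the ETS motif (CGGAAG), the CRE motif (TGACGTCA), the CCAAT box (its name spells it), the E-box (CACGTG) and the TATA motif (TATAAA). No match in the promoters printed overlapped another, though the CRE and ETS matches of XRN2 adjoin.
RNASEH1: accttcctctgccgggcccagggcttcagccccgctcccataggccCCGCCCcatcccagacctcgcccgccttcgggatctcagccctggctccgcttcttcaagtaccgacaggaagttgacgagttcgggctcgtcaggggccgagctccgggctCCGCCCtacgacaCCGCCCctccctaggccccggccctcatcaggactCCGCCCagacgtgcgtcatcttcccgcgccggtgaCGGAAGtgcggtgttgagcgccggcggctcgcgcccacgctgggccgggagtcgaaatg
RNASEH2A: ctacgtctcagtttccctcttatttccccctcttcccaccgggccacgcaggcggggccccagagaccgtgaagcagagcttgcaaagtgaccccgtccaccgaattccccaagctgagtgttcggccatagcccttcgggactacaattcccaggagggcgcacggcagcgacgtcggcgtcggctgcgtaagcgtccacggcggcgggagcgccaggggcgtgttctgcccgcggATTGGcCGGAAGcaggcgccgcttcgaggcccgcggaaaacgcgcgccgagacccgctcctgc
RNASEH2B: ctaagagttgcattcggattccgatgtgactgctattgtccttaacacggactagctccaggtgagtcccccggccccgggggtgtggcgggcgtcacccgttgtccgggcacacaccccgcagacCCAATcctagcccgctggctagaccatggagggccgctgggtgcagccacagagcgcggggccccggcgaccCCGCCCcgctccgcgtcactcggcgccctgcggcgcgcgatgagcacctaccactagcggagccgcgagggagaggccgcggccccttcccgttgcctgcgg
RNASEH2C: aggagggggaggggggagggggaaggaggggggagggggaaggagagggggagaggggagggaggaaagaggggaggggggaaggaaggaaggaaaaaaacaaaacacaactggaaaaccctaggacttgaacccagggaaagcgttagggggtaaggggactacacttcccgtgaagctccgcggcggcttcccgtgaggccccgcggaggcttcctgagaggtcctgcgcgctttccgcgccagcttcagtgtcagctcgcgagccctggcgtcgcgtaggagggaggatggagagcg
XRN2: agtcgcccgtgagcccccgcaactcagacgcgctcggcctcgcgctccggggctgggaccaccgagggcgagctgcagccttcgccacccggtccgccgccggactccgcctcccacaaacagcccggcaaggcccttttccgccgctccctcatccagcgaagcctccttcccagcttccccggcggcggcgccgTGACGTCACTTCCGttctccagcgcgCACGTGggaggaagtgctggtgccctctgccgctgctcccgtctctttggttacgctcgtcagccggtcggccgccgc
THOC1: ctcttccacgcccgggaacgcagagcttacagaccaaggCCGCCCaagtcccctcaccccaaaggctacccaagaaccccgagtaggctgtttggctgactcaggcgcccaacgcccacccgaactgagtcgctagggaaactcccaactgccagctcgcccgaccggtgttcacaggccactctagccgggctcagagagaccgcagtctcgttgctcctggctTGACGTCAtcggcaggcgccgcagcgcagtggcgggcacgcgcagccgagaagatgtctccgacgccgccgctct

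The catalytic subunit gene RNASEH2A (the printed interval is chr19:12806334-12806633, + strand) held a CCAAT box at -13 and the ETS motif at -7, counted in bases from the start. RNASEH2B (chr13:50909541-50909840, + strand) held a CCAAT box and a GC box, and RNASEH2C (chr11:65720749-65721048, - strand) held none of the motifs searched. The 3 subunit genes of RNase H2 thus had no searched motif in common. RNASEH1 (chr2:3558284-3558583, - strand) held 4 GC boxes and 1 ETS match. The CRE motif was found in XRN2 (chr20:21303081-21303380, + strand) at -54 and in THOC1 (chr18:267998-268297, - strand) at -25. It was present in 2.29% of 21613 promoters of protein-coding genes.

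Over all 9 genes, the ETS motif was in 5 promoters and in 23.9% of all promoters, and the GC box in 6 and in 56.8%, respectively. A CCAAT box was in 4 (34.9% of all), the TATA motif in 1, that of DDX5 (9.45%), and the E-box in 1, that of XRN2 (8.35%). The NRF1 and YY1 motifs were in none, against 1.48% and 6.04% of all promoters. GC content ranged from 61.7% to 72.0%, beside a median of 62.3% over all promoters. A match is a run of letters and no sign of binding.

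RNASEH1 encodes the enzyme that cuts hybrids in the nucleus and, as another form, in mitochondria, where it acts in replication of the organelle's DNA. The gene (ENSG00000171865) lies on the minus strand of chromosome 2 between 3541430 and 3558333 (GRCh38) and its MANE Select transcript has 8 exons. RNASEH1 had 366, 437 and 313 reads in replicates 1, 2 and 3, or 23.6, 24.3 and 23.7 TPM (mean 23.9 ± 0.351, SD, n = 3). The values lay close together, and their coefficient of variation (CV) of 1.47% was below the 5.23% that counting error alone gives at these counts. Its level was in the middle class by both the union and MANE Select, at the 63.9th percentile of expressed protein-coding genes by the union and at the 56.5th by MANE Select, where its mean was 16.2 ± 0.220 TPM (SD, n = 3). By coding sequence its mean was 55.0 TPM, in the high class. That length, 860 bases beside 5289 for MANE Select, leaves out untranslated exons, while the counts are per gene. Values by coding sequence are therefore raised in genes with long untranslated exons.

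Near-copies bear on the RNASEH1 count. Of 5 genes whose transcripts matched its coding sequence at 80% identity or more over at least 300 bases, the long noncoding RNA CCDC144NL-AS1 matched at 95.2% over 565 bases and had 1139, 1410 and 936 reads, more than RNASEH1 in every replicate. The pseudogene RNASEH1P1 matched at 95.8% over 709 bases and had 37, 49 and 47 reads. RNASEH1P2 and ENSG00000233455 had no read in any replicate, which allows up to 3 counts each, and ENSG00000286905, which shares 1018 exon bases with RNASEH1 on the same strand, was not analysed here. How reads that fit several places were counted is not given in the sources used here, so the RNASEH1 level is uncertain. In all, 2084 genes matched some part of its transcript, nearly all of them outside the coding sequence.

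RNase H2 has 3 subunits: RNASEH2A carries the active site, RNASEH2B holds the site by which the enzyme binds the sliding clamp PCNA, and RNASEH2C joins both. Unlike RNase H1, this enzyme also cuts at single ribonucleotides built into DNA. Each subunit gene is known to be mutated in Aicardi-Goutieres syndrome, an inherited inflammatory disease.

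RNASEH2A (ENSG00000104889; chromosome 19, 12806584 to 12813640, plus strand, 8 exons) had 612, 767 and 541 reads, or 114, 123 and 119 TPM (mean 119 ± 4.47, SD, n = 3). With the MANE Select length its mean was 127 ± 4.76 TPM (SD, n = 3), and it was in the high class either way. It was the highest of the 4 RNase H genes in every replicate under both lengths. Of its exon bases, 53.3% are shared on the same strand with THSD8, which was not analysed here. THSD8 also matched 890 bases of the RNASEH2A transcript at 100% identity. The RNASEH2A level, its place and its ratios to other genes are therefore uncertain.

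RNASEH2B (ENSG00000136104; chromosome 13, 50909747 to 51024120, plus strand, 11 exons) had 306, 318 and 229 reads, or 4.48, 4.01 and 3.93 TPM (mean 4.14 ± 0.298, SD, n = 3). This was the lowest level of the 9 genes, and in the middle class close to its lower boundary. Its length decides the value. The 46 annotated transcripts of RNASEH2B together cover 26222 bases of exon, while its MANE Select transcript has 1513, a ratio of 17.3. The median ratio over expressed protein-coding genes was 1.37, and 0.0530% of them had a ratio as large as that of RNASEH2B. By the MANE Select length it reached 46.8, 41.8 and 41.3 TPM (mean 43.3 ± 3.01, SD, n = 3), in the high class. Which of its transcripts the cells use was not tested, since the counts are per gene.

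RNASEH2C (ENSG00000172922; chromosome 11, 65714005 to 65720818, minus strand, 4 exons) had 314, 349 and 270 reads, or 24.3, 23.2 and 24.5 TPM (mean 24.0 ± 0.682, SD, n = 3). Its values overlapped those of RNASEH1 and were in the middle class, while by MANE Select it had 27.2 ± 0.847 TPM (SD, n = 3), just above the boundary of 26.4 TPM for the high class. RNASEH2C shares 1439 exon bases (28.9%) with KAT5, an acetyltransferase gene on the opposite strand that had 338, 381 and 300 reads. Use of strand in the counting is not given, and reads of these 2 genes may not have been told apart. The pseudogene RNASEH2CP1, which matched 518 bases at 80.3% identity, had no read in any replicate, and XGY2, with a match of 650 bases, was not analysed here. RNASEH2B, DDX5, XRN2 and THOC1 had no near-copy by this measure.

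The 3 RNase H2 subunits are present once each in the enzyme, and their transcripts were compared within each replicate. RNASEH2A was above RNASEH2B by 25.5, 30.8 and 30.1 times in replicates 1, 2 and 3 (mean 28.8 ± 2.87, SD, n = 3). By MANE Select the ratio was 2.94 ± 0.292, by coding sequence 4.05 ± 0.404 and by the longest transcript 13.2 ± 1.32. RNASEH2A was thus above RNASEH2B in all replicates under every length, and the size of the difference moved with the length. For RNASEH2C over RNASEH2B even the direction moved, from 5.81 ± 0.403 by the union of exons to 0.630 ± 0.0438 by MANE Select. RNASEH2A over RNASEH2C was 4.96 ± 0.316 and 4.66 ± 0.297, so that these 2 subunits kept their ratio between those lengths, but 1.68 ± 0.107 by coding sequence. RNASEH2A was 4.97 ± 0.123 times as high as RNASEH1 by the union, 7.81 ± 0.193 times by MANE Select and 1.64 ± 0.0404 times by coding sequence.

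**Figure D1:**
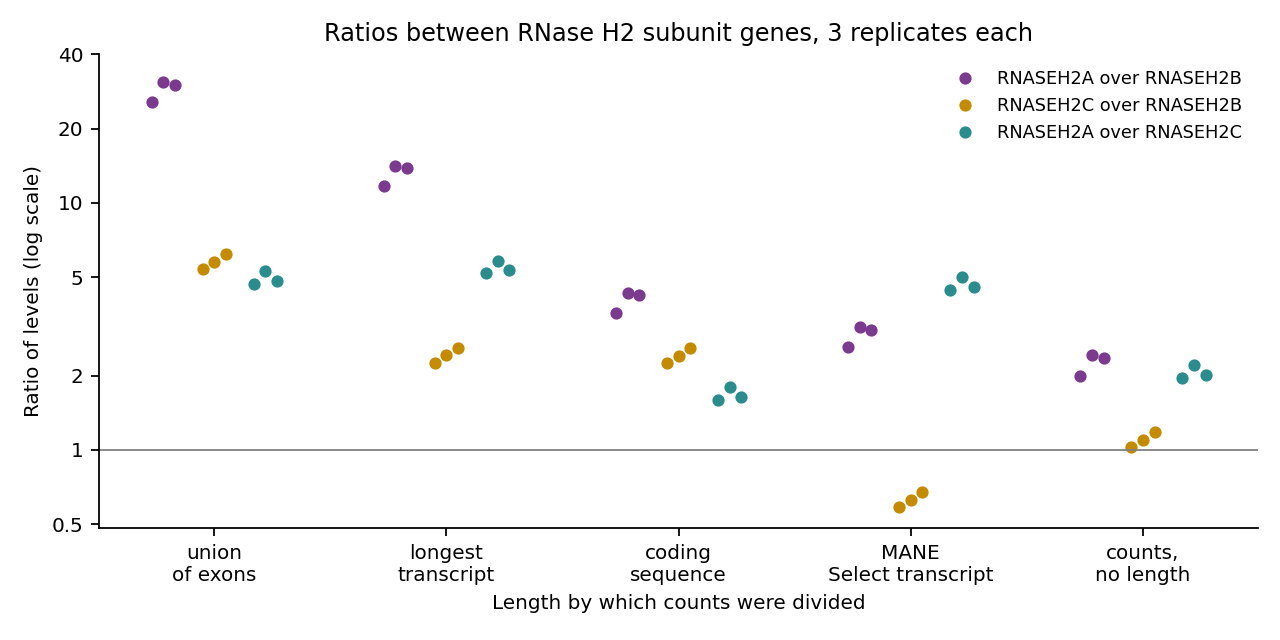
Ratios between the RNase H2 subunit genes within each of the 3 replicates (points), on a log scale, with counts divided by 4 definitions of gene length or by none. The ratio of RNASEH2C to RNASEH2B lies above 1 in all but the MANE Select column, where it falls to 0.630.

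AQR encodes Aquarius, a helicase that joins the spliceosome on introns as part of the intron-binding complex and whose loss is known to raise R-loops. The gene (ENSG00000021776; chromosome 15, 34851782 to 34969742, minus strand, 35 exons) had 1995, 2341 and 1563 reads, or 57.1, 57.6 and 52.4 TPM (mean 55.7 ± 2.84, SD, n = 3). It lay in the high class, at the 81.8th percentile, and had 47.0 ± 2.21 TPM (SD, n = 3) by MANE Select. No exon of another gene overlapped those of AQR. Its transcript matched 2200 other genes outside the coding sequence and none within it.

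The other 4 members of the intron-binding complex were listed with it. XAB2 had 48.5 ± 3.46 TPM, ZNF830 36.5 ± 2.67, PPIE 8.24 ± 0.532 and ISY1 8.06 ± 1.69 (SD, n = 3). Of ISY1's exon bases, 23.55% are shared on the same strand with the readthrough gene ISY1-RAB43, which had no read, and its value is uncertain. AQR was above XAB2 by 1.25, 1.22 and 1.00 times in replicates 1, 2 and 3 by the union of exons, which is level in replicate 3. By MANE Select, AQR was 0.991, 0.971 and 0.797 times the level of XAB2 (51.4 ± 3.88 TPM), which is close to level in replicates 1 and 2. By coding sequence it was 1.84 ± 0.214 times as high as XAB2.

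DHX9 encodes RNA helicase A, a DExH-box enzyme that unwinds RNA duplexes, RNA-DNA hybrids and G-quadruplexes. The gene (ENSG00000135829; chromosome 1, 182839347 to 182887982, plus strand, 28 exons) had 6571, 7653 and 4987 reads, or 428, 429 and 381 TPM (mean 413 ± 27.4, SD, n = 3). It was the highest of the 9 genes by the union of exons and stood at the 98.4th percentile. Replicate 3 was the low one, while replicates 1 and 2 were nearly equal. By MANE Select its mean was 327 ± 20.4 TPM (SD, n = 3). The processed pseudogene DHX9P1 matched 3101 of its bases at 93.6% identity and had 1, 1 and 0 reads, and 2 further pseudogene copies (ENSG00000214883 and ENSG00000254897) had at most 3 in a replicate.

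DDX5 encodes p68, a DEAD-box helicase that acts in splicing, transcription and microRNA processing and can unwind hybrids. The gene (ENSG00000108654; chromosome 17, 64498254 to 64508199, minus strand, 13 exons) had 7238, 8603 and 6183 reads, the most of the 9 genes. This came to 299, 305 and 299 TPM (mean 301 ± 3.72, SD, n = 3), with the smallest CV of the 9, 1.23%, close to the 1.18% of counting error. By MANE Select it was the highest of the 9 at 459 ± 5.15 TPM (SD, n = 3). It shares 252 exon bases with CEP95 on the opposite strand (435, 489 and 358 reads). MIR3064 and MIR5047 lie within its exons and were not analysed here. DDX17, the paralogue of DDX5, was 1.14 ± 0.0346 times as high by the union (344 ± 10.8 TPM) and 0.949 ± 0.0288 times by MANE Select, so that the order of the pair depended on the length.

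XRN2 encodes the nuclear exonuclease that degrades the RNA left on polymerase II after cleavage at the poly(A) site and thereby ends transcription. The gene (ENSG00000088930; chromosome 20, 21303331 to 21389825, plus strand, 30 exons) had 3011, 3640 and 2408 reads, or 339, 353 and 318 TPM (mean 337 ± 17.4, SD, n = 3). Its 1 annotated transcript makes both lengths equal, and its lower mean of 203 ± 9.79 TPM (SD, n = 3) by MANE Select comes from the shorter lengths of other genes in the sum. XRN2 was above its cytoplasmic paralogue XRN1 (12.3 ± 0.291 TPM) by 27.4 ± 1.48 times, by 23.1 ± 1.24 times by MANE Select and by 14.1 ± 0.759 times by coding sequence. The long noncoding RNA ENSG00000275457, which shares 143 exon bases with it on the opposite strand, had 45, 43 and 46 reads.

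THOC1 encodes a subunit of THO, the complex that binds nascent mRNA and, as the core of TREX, prepares it for export. The gene (ENSG00000079134; chromosome 18, 214520 to 268050, minus strand, 21 exons) had 692, 760 and 508 reads, or 32.8, 31.0 and 28.3 TPM (mean 30.7 ± 2.30, SD, n = 3). This was in the high class, near its boundary, and by MANE Select its mean was 71.2 ± 5.07 TPM (SD, n = 3). Its CV of 7.48% was the largest of the 9. Exons of THOC1 and USP14, a deubiquitinase gene with 2071, 2375 and 1595 reads on the opposite strand, share 110 bases.

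Of the other THO subunits, THOC6 had 102 ± 2.71 TPM, THOC7 87.7 ± 4.20, THOC5 47.4 ± 1.27, THOC2 44.2 ± 1.45 and THOC3 14.2 ± 0.724 (SD, n = 3). THOC1 was thus the fifth of 6 subunits by the union of exons, and the third by MANE Select. It was 0.694 ± 0.0296 times the level of THOC2 by the union of exons and 1.45 ± 0.0619 times by MANE Select.

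**Figure D2:**
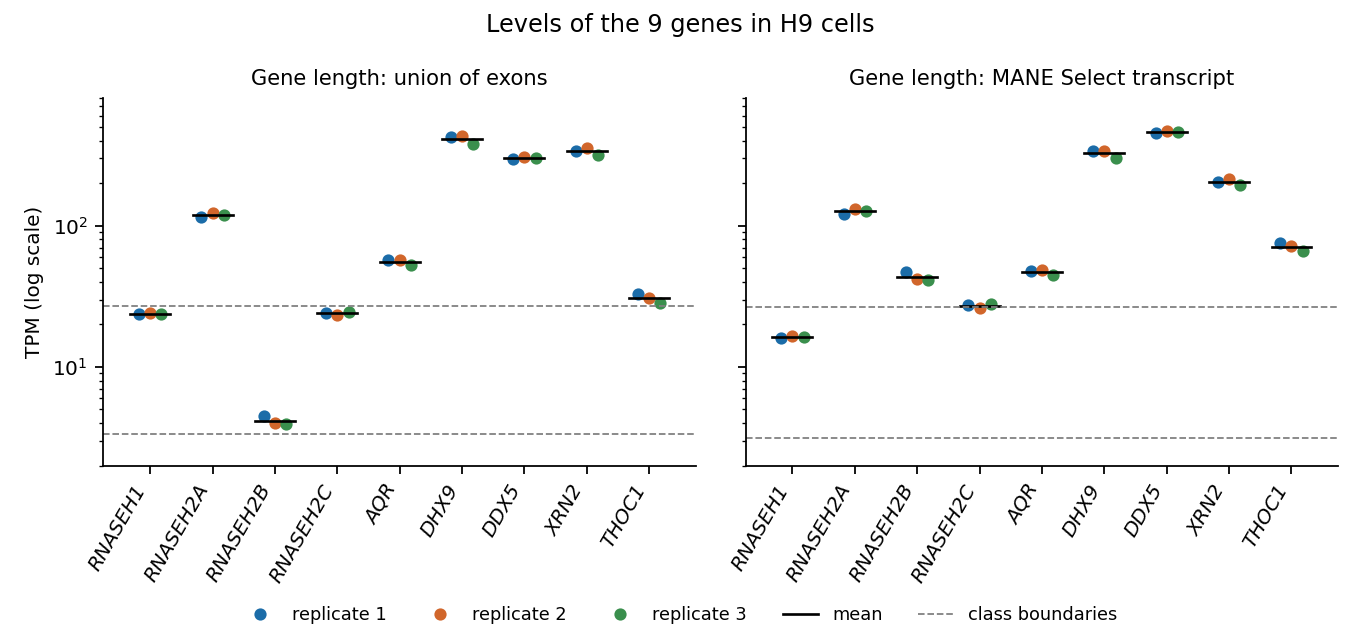
Level of each of the 9 genes in TPM on a log scale, with points for the 3 replicates, black bars for their mean and dashed lines at the class boundaries, by union of exons (left) and MANE Select transcript (right). DHX9 is highest on the left at 413 TPM and DDX5 on the right at 459 TPM, and RNASEH2B moves from 4.14 to 43.3 TPM.

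Ranked by the union of exons, the order was DHX9, XRN2, DDX5, RNASEH2A, AQR, THOC1, RNASEH2C, RNASEH1 and RNASEH2B. Each gene lay above the next in all 3 replicates with no overlap of values and a difference larger than either SD, with the exception of RNASEH2C and RNASEH1, whose means of 24.0 and 23.9 TPM did not differ beyond their spread. By MANE Select the order was DDX5, DHX9, XRN2, RNASEH2A, THOC1, AQR, RNASEH2B, RNASEH2C and RNASEH1. Here the values of AQR and RNASEH2B overlapped, although AQR was higher in all 3 replicates, and no other neighbours did. DHX9 over DDX5 went from 1.37 ± 0.0852 to 0.712 ± 0.0443, and XRN2 over DDX5 from 1.12 ± 0.0485 to 0.443 ± 0.0192. DHX9 over AQR was 7.40 ± 0.123 and 6.94 ± 0.115 by these lengths, and 3.96 ± 0.0656 by coding sequence. The 3 genes DHX9, DDX5 and XRN2 held the upper 3 places and RNASEH2A the fourth under both lengths.

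The high class held 6 of the 9 genes by the union of exons (RNASEH2A, AQR, DHX9, DDX5, XRN2 and THOC1) and 8 by MANE Select, all but RNASEH1. By coding sequence it also held 8, all but RNASEH2B. By construction it holds 33.3% of expressed protein-coding genes. The median of the 9 genes was 55.7 TPM beside 11.7 TPM over expressed protein-coding genes, and 71.2 beside 11.4 TPM by MANE Select. All 9 passed the threshold for expression, as did 86.4% of protein-coding genes. As the genes were picked as known factors of 1 process, these places are a description.

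Spread between the replicates was small. The CVs of the 9 genes ranged from 1.23% (DDX5) to 7.48% (THOC1) with a median of 5.10%, beside a median of 5.57% over 9386 protein-coding genes with at least 100 reads in every replicate. To ask whether the libraries differed by more than counting error, each gene's counts were compared with the library totals by a chi-square test over the 3 libraries, with Benjamini-Hochberg adjustment over 18451 genes with at least 20 reads. The test compares libraries and not conditions. It called DHX9 and XRN2, 2 of the 9 genes, where 10.9% of all genes tested were called. Of 6959 genes with as many reads as these 9 (853 to 22024 in all), 19.7% were called.

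DHX9 had 4987 reads in replicate 3 where 5351 were expected, a log2 ratio of -0.10, against 0.03 and 0.04 in replicates 1 and 2 (chi-square test, adjusted p = 1.753e-06). XRN2 was 0.05 above expectation in replicate 2 and at -0.07 in replicate 3 on the log2 scale (adjusted p = 0.04823). The other 7 genes had adjusted p-values from 0.2519 (AQR) to 0.9604 (RNASEH1). RNASEH2B in replicate 1 and THOC1 in replicate 3 deviated as far as DHX9, at 0.10 and -0.10, and were not called (adjusted p = 0.6137 and 0.3304) with 853 and 1960 reads in all, so that a difference of this size was not detectable at their depth.

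**Figure D3:**
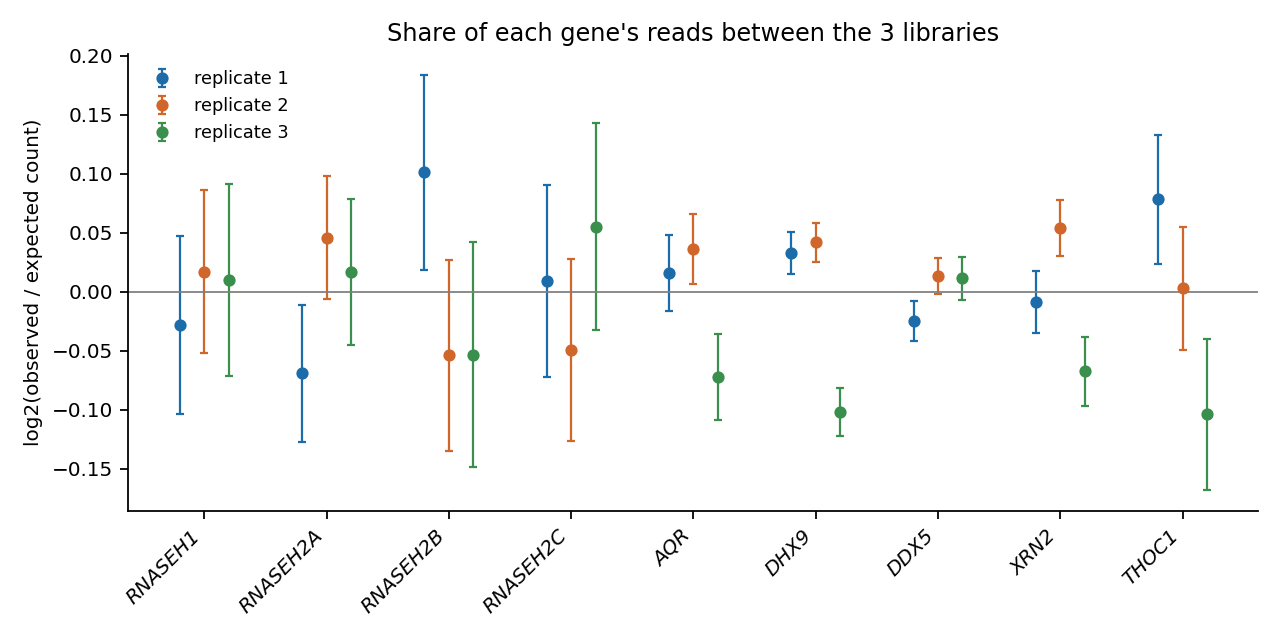
Observed over expected count of each gene in the 3 libraries on a log2 scale, where expected counts follow the library totals and bars are 1 SD of counting error. DHX9 in replicate 3 lies at -0.10 with a short bar, while deviations as large in THOC1 and RNASEH2B have longer bars.

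Over the 9 genes, the deviation of replicate 3 went with GC content of exons. Its log2 ratio to the mean of the other replicates, in CPM, ran from -0.15 in THOC1, the gene with the lowest exon GC (36.7%), to 0.07 in RNASEH2C, the gene with the highest (56.8%). Over the 9 genes Spearman's rho of this ratio with exon GC was 0.9, and over 9946 genes with at least 100 reads in every library it was 0.408. These points share the same 3 libraries, and the correlations are descriptions. With expected counts taken within 20 bins of exon GC, the test called 6.32% of all genes and 1 of the 9, DHX9 (chi-square test, adjusted p = 0.003009), while XRN2 was no longer called (adjusted p = 0.3433). Without replicate 3 none of the 9 was called (DHX9 adjusted p = 0.9416, XRN2 0.5296), and without replicate 2 DHX9 alone was (3.301e-05, XRN2 0.4008). Over all alternatives run, adjusted p ranged from 1.81e-11 to 0.9416 for DHX9 and from 0.00262 to 0.5296 for XRN2. The source of the GC difference between libraries was not tested.

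**Figure D4:**
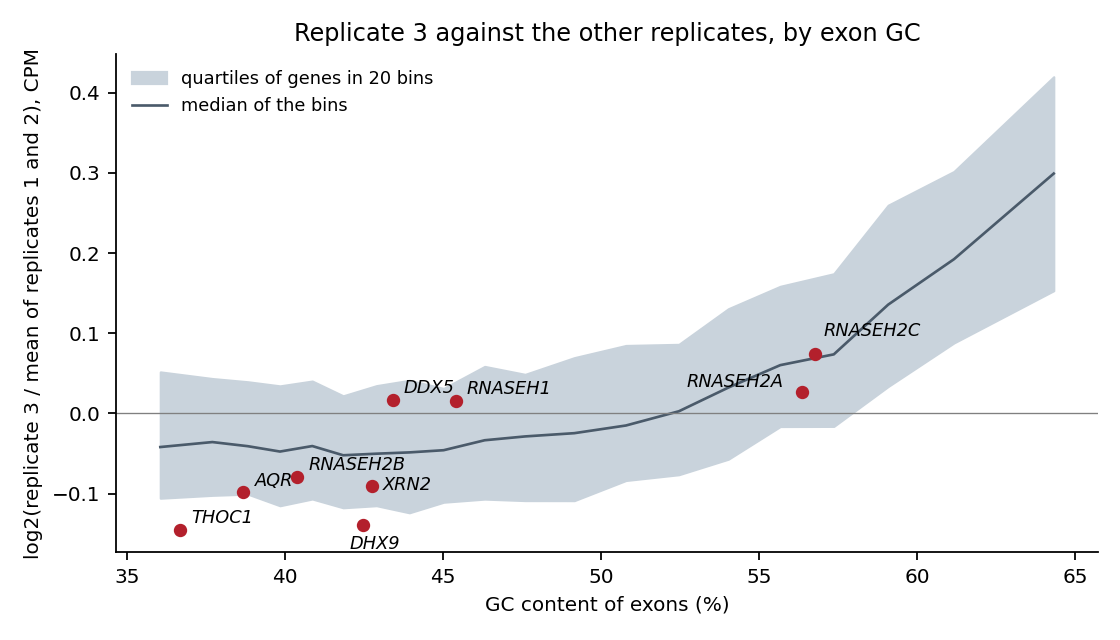
Log2 ratio of replicate 3 to the mean of replicates 1 and 2, in CPM, against exon GC content in percent for the 9 genes (red), over the median (line) and quartiles (shade) of 9946 genes in 20 bins. THOC1 at -0.15 and DHX9 at -0.14 lie below the lower quartile of genes of like GC, and the line is nearly flat at low GC and rises toward high GC.

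Further genes that act with the 9 were listed by role. Of 11 other helicases that unwind hybrids, 7 were in the high class, 3 in the middle and 1 in the low class. They ranged from RTEL1, a telomere helicase (1.90 ± 0.316 TPM), to DDX17 (344 ± 10.8, SD, n = 3). DHX9 was above all 11 by the union of exons, and below DDX17 (436 ± 15.0 TPM against 327) by MANE Select. Of RTEL1's exon bases, 52.9% are shared with the readthrough gene RTEL1-TNFRSF6B, and its value is uncertain. Of 7 other THO and TREX genes, 6 were high and 1 in the middle class, from THOC3 (14.2 TPM) to ALYREF, the mRNA export adaptor (395 ± 14.0 TPM, SD, n = 3).

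All 6 genes of known partners of the RNase H enzymes were in the high class. They ranged from RPA3, a subunit of the single-strand binding protein RPA (42.1 ± 0.770 TPM), to PCNA (802 ± 36.4 TPM, SD, n = 3), which was 6.75 ± 0.304 times as high as RNASEH2A, or 4.20 ± 0.189 times by MANE Select. Among 6 genes of termination and decay, 3 were high and 3 in the middle class, from XRN1 to CPSF3, the nuclease that cuts at the poly(A) site (131 ± 9.66 TPM, SD, n = 3). XRN2 was above all 6 under both lengths.

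Of 8 genes that prevent R-loops, 4 were high and 4 in the middle class, from TDRD3, a partner of TOP3B (13.6 ± 1.33 TPM), to the splicing factor SRSF1 (409 ± 4.11 TPM, SD, n = 3). By MANE Select 6 of them were high, and SSRP1, a subunit of the histone chaperone FACT, replaced SRSF1 as the highest at 352 TPM. Of TOP3B's exon bases, 90.75% are shared on the opposite strand with PPM1F-AS1, which had 488, 576 and 430 reads. As use of strand in the counting is not given, the class of TOP3B is uncertain by either length. Of 3 endonucleases that cut R-loops or flaps, FEN1 was high (230 ± 7.50 TPM) and the others in the middle class, with ERCC5 the lowest at 3.84 ± 0.355 TPM (SD, n = 3). Of ERCC5's exon bases, 32.97% are shared on the same strand with the readthrough gene BIVM-ERCC5, which had no read. SRSF1 shares 32.69% in the same way with ENSG00000266086, also without a read, and both values are uncertain. Over all these lists with the one that follows, 31 of 51 genes were in the high class, or 32 by MANE Select.

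Aicardi-Goutieres syndrome is also known to arise from genes outside RNase H2, and 6 of these were examined beside its 3 subunits. ADAR, which edits adenosine in double-stranded RNA, was the highest of those with a read at 237 ± 5.70 TPM (SD, n = 3). RNASEH2A, at 119 TPM, was below ADAR and above the others that had a read. TREX1, a DNA exonuclease, had no read in any replicate, which allows up to 3 counts per replicate. All of its annotated exon bases lie within those of ATRIP on the same strand, which had 3, 6 and 6 reads. RNU7-1, a small RNA of histone mRNA processing, was also without a read, and 98.4% of its bases lie within C12orf57 (298, 348 and 308 reads). For these 2 genes a count of 0 can therefore not be read as absence of their RNA.

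**Figure D5:**
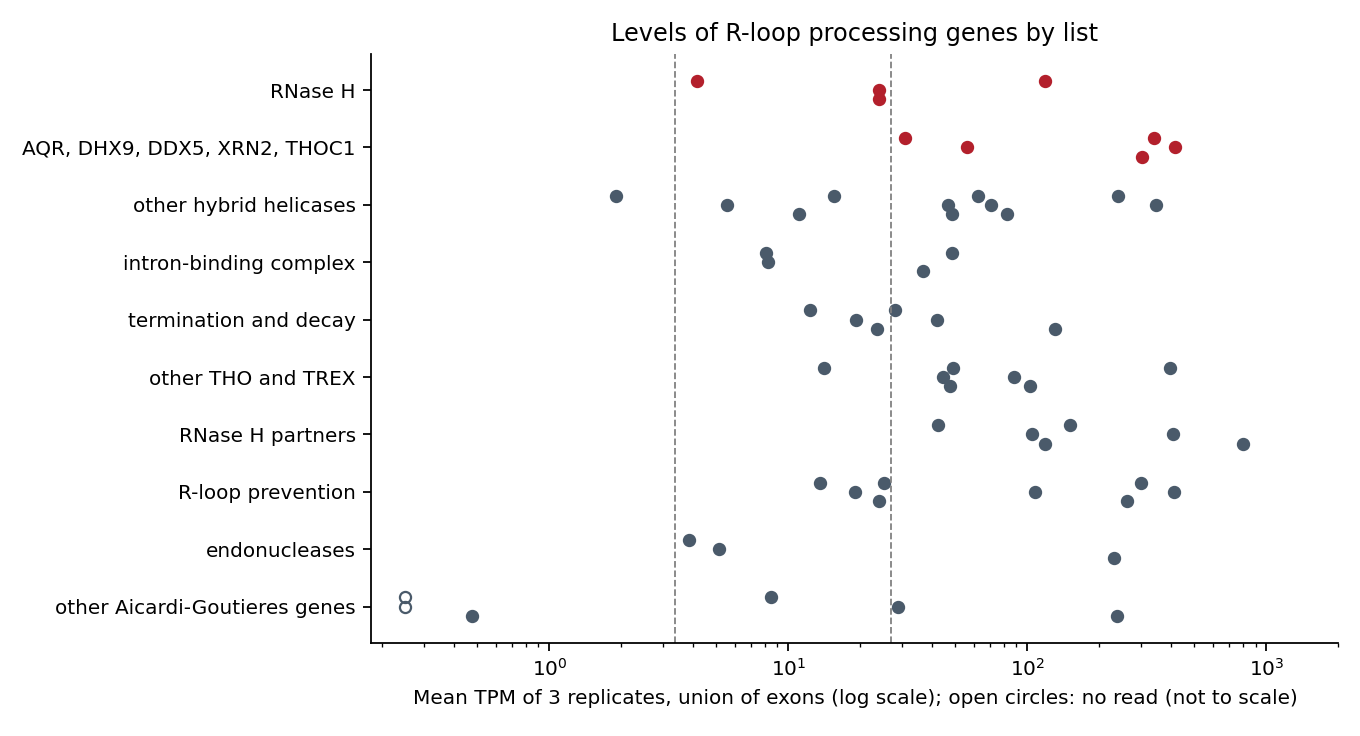
Mean level of each gene in TPM on a log scale, by list, with the 9 genes in red, the other genes in gray and dashed lines at the class boundaries. Among the 9 genes RNASEH2B lies farthest left at 4.14 TPM and DHX9 farthest right at 413 TPM, and PCNA lies above all of them at 802 TPM.

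Other transcripts start close to several of the 9 genes. Within 1000 bp of the start, 6 of the 9 had an annotated gene starting on the opposite strand (RNASEH1, RNASEH2B, DHX9, DDX5, XRN2 and THOC1), as did 26.6% of 20046 protein-coding genes in the annotation. RNASEH1-DT, whose start lies at -86 bp from that of RNASEH1 and within the promoter printed above, had 115, 98 and 71 reads, next to 366, 437 and 313 for RNASEH1. The start of THOC1-DT lies at -66 bp from that of THOC1, and it had 12, 5 and 3 reads. RNASEH2B-AS1, whose start lies 973 bp downstream of that of RNASEH2B, had 16, 12 and 9 reads. CEP95, at -576 bp from DDX5, was the only protein-coding partner of the 6. In these pairs and in that of XRN2 with ENSG00000275457, the gene of the R-loop list had the higher count in every replicate. The start of ENSG00000275457 lies 373 bp downstream of that of XRN2. DHX9-AS1, whose start lies 214 bp downstream of that of DHX9, was not analysed here.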

How the data were processed

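Ribosomal RNA was depleted before sequencing the total RNA of 3 replicates of untreated H9 cells. Per the submitters' processing notes, reads were trimmed with Trim Galore 0.4.4 and aligned to GRCh38 with TopHat2 2.1.1, and Cufflinks 2.2.1 is also named. The authors deposited whole-number counts of reads per gene, without normalization. Which tool, annotation and strand setting gave them is not stated in the sources at hand. Totals were 10390984, 12024802 and 8655155 counts. Limits for a count of 0 (3 counts) and error bars of counts hold counting error alone, as PCR copies of a molecule are counted as reads.

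Identifiers were looked up in GENCODE release 44 on the same build, where 98.1% matched. TPM was computed from them with the union of exons as gene length, with MANE Select, longest transcript and coding sequence as alternatives. Means and SDs are over the 3 replicates. Genes under 0.01 TPM were called not expressed, and the 3 classes hold equal numbers of expressed protein-coding genes. Libraries were compared by a chi-square test of each gene with at least 20 reads, adjusted by Benjamini-Hochberg with a threshold of 0.05. On simulated counts with changed genes, the share of false calls was somewhat above that threshold. Exon overlaps were found with bedtools 2.31.1 and near-copies with blastn 2.17.0 (80% identity over 300 bases). Scaling factors came from edgeR 4.0.16 and DESeq2 1.42.0 (R 4.3.3). All else was computed in Python 3.11.15 with pandas 2.3.3, numpy 2.4.6 and scipy 1.17.1, and drawn with matplotlib 3.10.9. All 9 members had a promoter in the RefSeq table (GRCh38.p14).

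The genes named were the 9 members, the highest and lowest of each pathway list, the other THO subunits, the other members of the intron-binding complex, the paralogues DDX17 and XRN1, and genes that overlap or closely match a member. Other genes named, among them the genes that start on the opposite strand within 1000 bp of a member's start, were chosen after their values were seen. The members and lists were chosen with earlier results of these data known. No test of differential expression was made, as there is 1 condition.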

Additional observations from a re-analysis of the deposited data

How the results depend on the processing

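Gene length moved the levels most. The median of the 9 genes was 55.7 TPM by the union of exons, 67.0 by the longest transcript and 71.2 by MANE Select. By coding sequence it was nearly the same as by the union, at 55.0 TPM, and it was 54.7 to 57.3 when 1 replicate was left out. On the log2 scale, RNASEH2A over RNASEH2B was 4.84, and 3.72 by the longest transcript, 1.55 by MANE Select and 2.01 by coding sequence (4.79 to 4.93 without 1 replicate). RNASEH2C over RNASEH2B was 2.54, 1.27, -0.67 and 1.26, respectively (2.48 to 2.58), and reversed by MANE Select. RNASEH1 over RNASEH2A was -2.31, -2.87, -2.96 and -0.71 (-2.33 to -2.30). The high class held 6 of the 9 genes, 8 by MANE Select (all but RNASEH1) or coding sequence (all but RNASEH2B), and 5 with a threshold of 1 TPM or with only genes of at least 10 reads. TMM or DESeq2 factors moved no mean of the 9 genes by more than its SD, and leaving mitochondrial genes out raised 4 of them by more than that. The number of the 9 genes called different between libraries was 2, and 1 within GC bins, 1 with no filter beyond 1 read, 3 with TMM or DESeq2 factors (AQR added), and 0 to 2 with 1 replicate left out. Over all genes 2016 were called, 1166 within GC bins, and 227 without replicate 3. No paired analysis was possible because there is 1 condition. Depth limits the smaller genes: counting error alone gives RNASEH2B a CV of 5.99%. Apart from the lengths, the GC bins and the number of genes or samples compared, the causes of these changes were not tested.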

Other observations

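Among 49 other genes of the pathway lists that had enough reads to be tested, 12 differed in their share of reads between the 3 libraries by the chi-square test with Benjamini-Hochberg adjustment over all genes, and 6 did when expected counts were taken within bins of exon GC, beside 10.9% and 6.32% of all genes tested. By the first measure 19.7% of genes with 853 to 22024 reads were called. That is the range of the 9 genes, and some of the 49 lay outside it, such as IFIH1 (20 reads) and DDX17 (26954). The share called among genes with as many reads as the 49 was not computed. DDX39B, the helicase of TREX that loads export factors on mRNA, had 706, 1001 and 951 reads and the largest spread of its list, a CV of 23.1% (chi-square test, adjusted p = 1.205e-19). Replicate 1 lay at -0.33 and replicate 3 at 0.36 from the expected count on the log2 scale, and it was called within GC bins too (adjusted p = 1.285e-22). It was chosen after its values were seen. Of DDX39B's exon bases, 29.67% are shared on the same strand with the readthrough gene ATP6V1G2-DDX39B, which had no read. Its level and spread are therefore uncertain. ISY1, of the intron-binding complex, had 65, 115 and 68 reads and a CV of 20.9%, and was not called (chi-square test, adjusted p = 0.1314). Its exons are partly shared with ISY1-RAB43, as given above. None of the 9 genes had a CV above 7.48%. What sets the spread of DDX39B and ISY1 was not tested.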
